A study of Mus musculus with 6 samples.

Results

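The interleukins, chemokines and interleukin receptors of mouse skin epithelium were followed across WT and Ezh1/2 2KO cells. The members were all genes whose symbol starts with Il, Ccl or Cxcl directly followed by a digit, taken from probe sets that name 1 gene. They numbered 104 of the 18193 genes on the array: 73 Il genes (ligands, receptors and binding proteins), 18 Ccl genes and 13 Cxcl genes. Where several probe sets named a member, the brightest by mean log2 signal over the 6 arrays was used, and no difference between genotypes entered the choice. RNA came from 3 populations that had been sorted from the skin of 14-day-old mice by flow cytometry. Basal epidermis is the progenitor layer of the skin surface, matrix holds the dividing cells of the hair bulb, and the outer root sheath (ORS) is the outer wall of the follicle. Each population was measured once in WT and once in Ezh1/2 2KO mice, so each of the 6 groups has 1 array. All mice had a mixed C57B6 and CD1 background. The 2KO basal epidermis came from females, while the other 5 samples held both sexes, so in that population sex and genotype cannot be told apart. How many mice were pooled per sample, which exons were deleted and which Cre driver or cells carried the deletion is not said in the labels.

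Interleukins and chemokines are secreted signals by which epithelial cells recruit and instruct immune cells. Chemokines bind receptors on leukocytes and direct their migration, interleukins change the state of the cell that binds them, and decoy receptors or soluble binding proteins capture a ligand without passing on a signal. Keratinocytes both send and receive such signals, among them the stored alarm cytokines of the IL-1 family and the IL-20 group of cytokines that act back on the epidermis. The deleted genes, Ezh1 and Ezh2, encode the methyltransferases of Polycomb repressive complex 2, whose mark on histone H3 goes with gene silencing.

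Values are array signals on a linear scale, and signals under a floor of 83.2, the median of all probe sets, were set to that floor before a ratio was taken. A member was called higher or lower where 2KO differed from WT by at least 2-fold, a ratio limited by the floor on 1 side is written as at least N-fold, and a pair with both sides under the floor is not measured. With 1 array per group no spread between replicates exists, so no difference was tested, and the 3 populations are not replicates of one another. In sorted bulk samples fewer cells of a type and less RNA per cell cannot be told apart. Pairs of signals are given as WT and then 2KO. Ezh2 had signals of 2563 and 432 in basal epidermis, 3578 and 1725 in matrix, and 2151 and 378 in ORS, so the difference was smallest in the matrix pair (2.07-fold). Ezh1 read 401 and 57.4 in basal epidermis, 317 and 89.4 in matrix, and 380 and 51.6 in ORS. Hair matrix markers summed to 54064 on the WT matrix array against 2796 and 3183 on the WT basal and ORS arrays. On the 2KO matrix array they summed to 42159, with Msx2 2.78-fold and Dlx3 2.21-fold lower than in WT and Shh 2.86-fold higher. On the 2KO matrix array 13 of 29 leukocyte markers were at least 2-fold higher than on the WT matrix array, as were 4 of 5 ORS markers, 3 of 6 basal markers, 5 of 7 fibroblast markers and 3 of 5 skeletal muscle markers, while 0 of 4 endothelial markers were called and 1 of 5 melanocyte markers was lower. In basal epidermis the matrix markers summed to 2796 in WT and 970 in 2KO. Of these 7 markers, Krt25 (1171 and 84.4) and Krt35 (892 and 36.5) were lower and Lef1 (126 and 396) was higher. Also higher there were 2 of 5 ORS markers, Lhx2 (141 and 520) and Tcf7l1 (184 and 696). In ORS, Krt25 and Krt35 were lower and Lef1 (159 and 803) was higher, as were 1 of 5 ORS and 1 of 7 fibroblast markers. The part of these marker differences in the members' values was not tested.

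Basal epidermis had more members lower than higher in 2KO, matrix had only higher ones, and ORS had both. In basal epidermis 14 of the 104 members were lower (13.5%) and 6 were higher (5.77%), against 2.59% lower and 4.18% higher among all 18193 genes. In matrix 18 members were higher (17.3%) and 0 lower, against 5.79% and 1.04% of all genes. After scaling the arrays to their hybridisation controls, which moved the median log2 ratio of all bright genes there to -0.60, the members' counts were 8 higher and 1 lower, against 2.55% and 11.7% of all genes. ORS had 9 members higher (8.65%) and 11 lower (10.6%), against 5.38% and 3.13% of all genes. Among the 56 members with a mean signal above the floor, the median log2 ratio was -0.30 for basal epidermis, 0.44 for matrix and 0.14 for ORS, and the ORS median turned to -0.11 with a common median and -0.02 with the hybridisation controls. All 10943 genes with such a mean had medians of 0.02, 0.01 and -0.01, and their ORS median was -0.26 and -0.17 under the same pair of scalings. In all, 36 members were called in at least 1 population: 20 only higher, 12 only lower, and 4 in both directions (Il1r2, Il6ra, Il20 and Il20ra). The shares of all genes called in this way were not computed, so these counts do not show whether the members are unusual. Cxcl2 was the only member called in the same direction in all 3 populations. For this count, too, the share of all genes was not computed. Under at least 1 of 3 other scalings the matrix calls of Ccl27a, Ccl4, Cxcl1, Il13ra1, Il17rc, Il17rd, Il1rn, Il23a, Il6 and Il6ra were lost. The same held for Il1rl2, Il20ra, Cxcl5 and Il1f6 in basal epidermis and for Cxcl3 and Il24 in ORS.

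**Figure D1:**
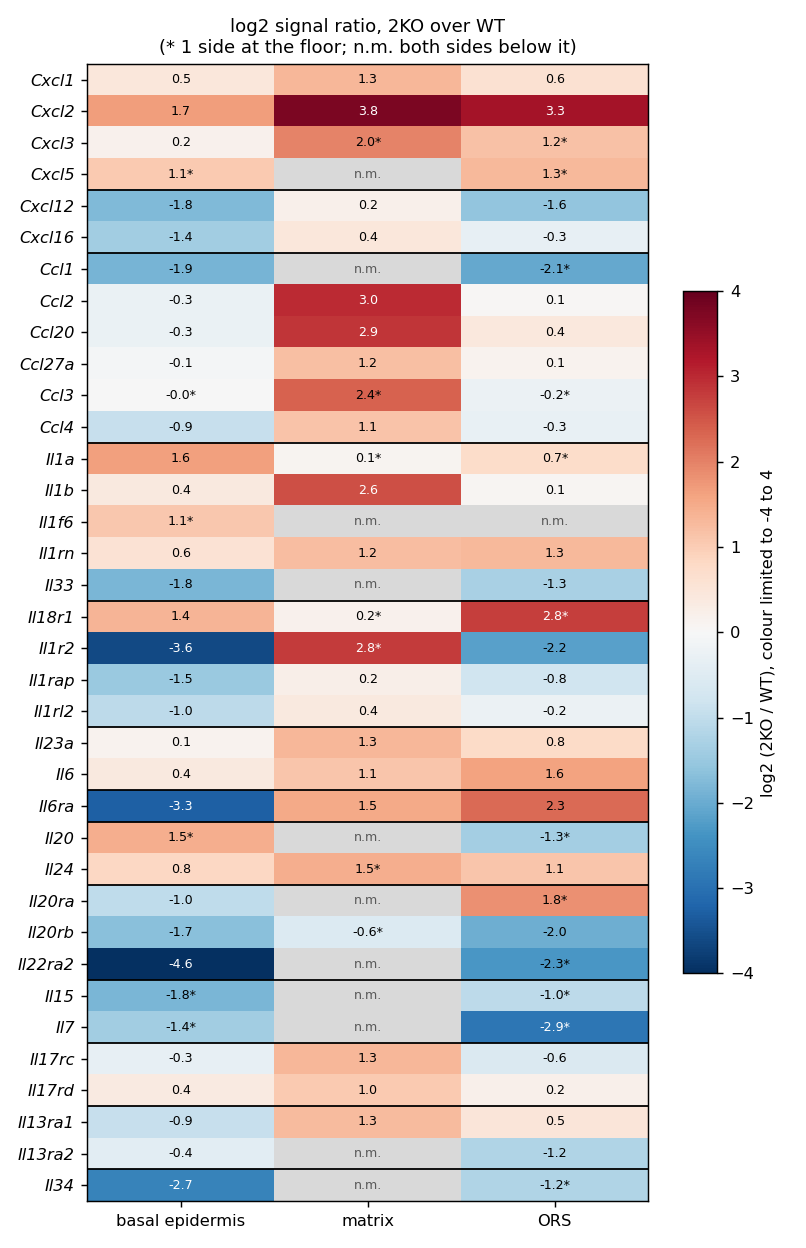
Log2 ratio of 2KO over WT (colour; floored signals) for the 36 members called in at least 1 of the 3 populations, with members in rows ordered by role and populations in columns. Matrix holds 18 members that were at least 2-fold higher and 0 that were lower, whereas basal epidermis holds 14 lower members and 6 higher ones.

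The neutrophil-attracting CXC chemokines, which carry an ELR motif and bind the receptor Cxcr2, were called higher or not at all. Of the 5 with a Cxcl symbol, 0 were lower in any population, and 2, 3 and 3 were higher in basal epidermis, matrix and ORS, respectively. Among all genes 4.18%, 5.79% and 5.38% were higher and 2.59%, 1.04% and 3.13% lower in the same order. Cxcl2 read 1585 and 5064 in basal epidermis, 688 and 9319 in matrix, and 1351 and 13423 in ORS. Its 2KO signal was thus higher by 9.94-fold in ORS, 13.5-fold in matrix and 3.19-fold in basal epidermis, and every 2KO array lay above every WT array. Cxcl1 read 8886 and 12202 in basal epidermis, 5252 and 13209 in matrix, and 11869 and 18036 in ORS. Only its matrix difference reached the fold used for a call (2.52-fold). Both other Cxcl1 probe sets were higher in 2KO in all 3 populations. Cxcl3 read 305 and 341 in basal epidermis, 38.4 and 330 in matrix, and 59.1 and 188 in ORS. It was at least 3.97-fold higher in matrix and at least 2.26-fold higher in ORS, with WT signals under the floor in both. Cxcl5 read 18.8 and 173 in basal epidermis (at least 2.08-fold higher), 5.67 and 73.5 in matrix (both under the floor), and 32.2 and 204 in ORS (at least 2.46-fold higher). Cxcl15, known from lung, was under the floor on all 6 arrays.

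Cxcl5, Cxcl3, Cxcl15, Cxcl1 and Cxcl2 lie in this order on chromosome 5, in a stretch that holds 2 other annotated genes. Cxcl15, which was not measured above the floor, lies amid the others, and its promoter window has 0 matches to the motif shown here. The promoter windows of Cxcl1, Cxcl2 and Cxcl3 are shown because these 3 genes of the stretch were called higher in 2KO matrix. Each window runs from 250 bases before to 50 bases after the start of the gene, from RefSeq on GRCm38.p6, 5′ to 3′ on the plus strand (chr5:90890995-90891294, chr5:90903649-90903948 and chr5:90785851-90786150), and capitals mark matches to GGNNTTTCC, an NF-kB-type motif, on either strand.
Cxcl1: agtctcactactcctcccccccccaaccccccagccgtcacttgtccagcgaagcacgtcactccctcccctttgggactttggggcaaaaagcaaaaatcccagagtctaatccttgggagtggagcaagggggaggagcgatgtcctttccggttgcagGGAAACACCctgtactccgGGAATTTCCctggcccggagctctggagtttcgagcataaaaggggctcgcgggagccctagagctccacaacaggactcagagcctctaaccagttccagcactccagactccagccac
Cxcl2: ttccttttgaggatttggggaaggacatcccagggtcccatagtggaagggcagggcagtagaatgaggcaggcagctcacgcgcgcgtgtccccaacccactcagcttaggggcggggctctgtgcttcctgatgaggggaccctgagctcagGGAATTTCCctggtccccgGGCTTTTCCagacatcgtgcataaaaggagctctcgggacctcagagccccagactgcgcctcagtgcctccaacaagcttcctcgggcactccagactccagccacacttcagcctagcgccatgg
Cxcl3: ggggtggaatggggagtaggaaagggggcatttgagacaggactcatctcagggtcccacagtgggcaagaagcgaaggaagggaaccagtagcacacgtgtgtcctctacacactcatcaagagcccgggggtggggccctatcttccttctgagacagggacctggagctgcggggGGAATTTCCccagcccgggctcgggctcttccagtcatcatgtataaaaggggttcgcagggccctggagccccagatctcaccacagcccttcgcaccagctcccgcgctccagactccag
In Cxcl1 the matches begin 89 bases before the start, on the minus strand, and 70 bases before it. Those of Cxcl2 begin 96 and 77 bases before the start, and that of Cxcl3 begins 72 bases before it. Of all 32851 promoter windows, 5.82% hold such a match, as do 19.1% of the 94 windows of members. Counted by gene, 17 of the 78 members with a window have a match. Of the members that were only higher, 14 have a window and 7 of these a match: Ccl20, Cxcl1, Cxcl2, Cxcl3, Il17rc, Il1rn and Il6. Of those that were only lower, 7 have a window and 1, Il1rl2, a match. Counted by window, these are 40% of 20 windows for the higher members and 12.5% of 8 for the lower ones. The higher and lower sets come from the calls of these same data, and a difference between them was not tested. Cxcl1, Cxcl2 and Cxcl3 lie in the same stretch, so their matches are not independent. Called members without a window, among them Ccl2, Cxcl5, Il22ra2 and Il34, are left out. A match describes these letters and is not a measured binding site.

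The other CXC chemokines were lower or not called. Cxcl12 holds cells through the receptor Cxcr4 and is also bound by Ackr3. It read 888 and 262 in basal epidermis and 3426 and 1155 in ORS, which made it 3.40-fold and 2.97-fold lower in 2KO, respectively. In matrix it read 272 and 310, without such a difference. A less bright Cxcl12 probe set was 2.74-fold lower in basal epidermis (724 and 265), but only 1.72-fold lower in ORS (1497 and 870). Cxcl16, a membrane-bound chemokine that attracts Cxcr6-bearing T cells, read 4428 and 1705 in basal epidermis (2.60-fold lower), 369 and 503 in matrix, and 1968 and 1581 in ORS. Interferon-induced chemokines that share the receptor Cxcr3 stayed within 2-fold. Cxcl10 read 15047 and 12581 in basal epidermis, 3122 and 5394 in matrix, and 9585 and 9818 in ORS. Cxcl9 read 9041 and 5654, 440 and 493, and 2780 and 4539 in the same order. Cxcl14, which keratinocytes make without stimulation, read 3947 and 4306, 3719 and 7041, and 8689 and 11672.

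Of 18 CC chemokines, 5 were called higher in matrix and 0 in basal epidermis and ORS. Among all genes 5.79%, 4.18% and 5.38% were higher in these populations, respectively, and a difference between populations was not tested. Ccl2, which attracts monocytes, read 89.7 in WT and 711 in 2KO matrix (7.92-fold higher), against 2346 and 1970 in basal epidermis and 2495 and 2589 in ORS. The 2KO matrix signal thus lay between the WT matrix and the 4 other arrays. Ccl20, the ligand of Ccr6, read 91.8 and 668 in matrix (7.27-fold higher), 1195 and 985 in basal epidermis, and 625 and 833 in ORS, so 2KO matrix reached the range of the other populations. Ccl3, an attractant made mostly by leukocytes, differed: its 2KO matrix signal of 426 (at least 5.12-fold higher, WT 19.5) was above all 5 other arrays, which ranged from 19.4 to 98.9. Ccl4 was 2.19-fold higher in matrix (129 and 282) and Ccl27a, a skin-homing signal for T cells, 2.32-fold (89.5 and 208). Ccl1, the ligand of Ccr8, went the other way where it was measured. It read 425 and 116 in basal epidermis (3.66-fold lower), and 345 and 37.2 in ORS (at least 4.15-fold lower), and 7.19 and 13.6 in matrix.

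Leukocyte marker signal differed along with the matrix calls. The summed signal of the 29 leukocyte markers was 13032 and 10641 in basal epidermis, 2597 and 9271 in matrix, and 7447 and 9421 in ORS. In matrix 20 markers were above the floor in 2KO against 11 in WT. Ptprc, the pan-leukocyte antigen CD45, read 223 and 68.7 in basal epidermis, 21.0 and 243 in matrix, and 75.8 and 46.7 in ORS. Of the 5 T cell markers, Cd3d, Cd3e, Cd3g and Cd2 were under the floor on every array, whereas Thy1, which other cells also express, read 1142 and 679, 84.1 and 245 (2.91-fold higher), and 566 and 683. The MHC class II gene H2-Eb1 alone gave 2873 of the 9271 in 2KO matrix. It read 2232 and 3627 in basal epidermis and 1148 and 3517 in ORS, so the sums there depend on it as well. In basal epidermis the markers Cd74, Lyz2 and Ptprc were called lower and Cpa3 higher. In ORS Lyz2 and C1qb were called lower, and H2-Eb1 and Mmp9 higher. The summed muscle markers were 191 and 2248 in matrix, and the summed fibroblast markers 19960 and 35961. The summed melanocyte markers were 2961 and 1677.

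**Figure D2:**
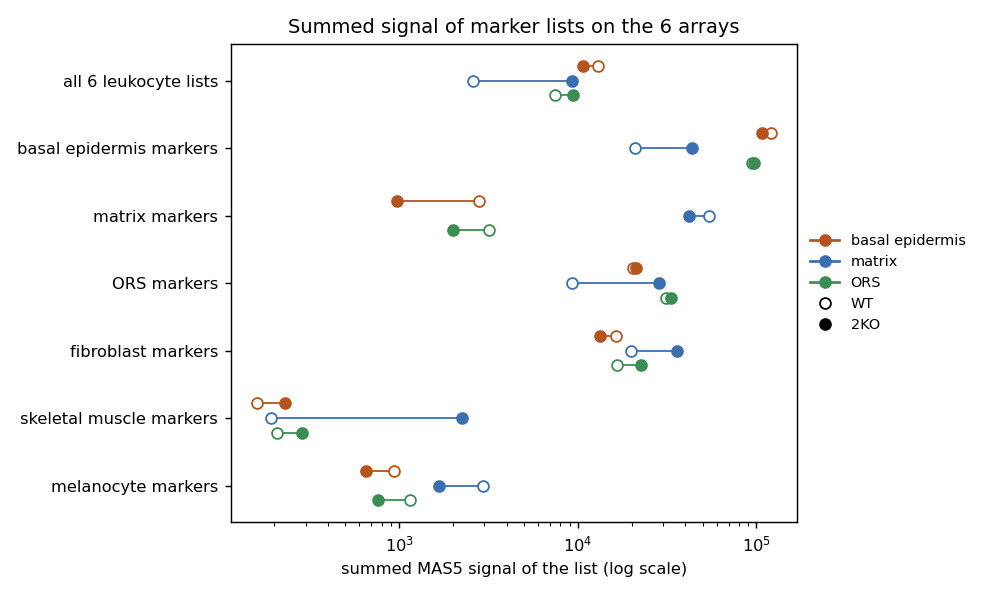
Summed array signal (x axis, log scale) of marker lists of leukocytes, the 3 sorted populations and other cell types (rows), with open points for WT, filled points for 2KO and colours for the populations. The leukocyte markers sum to 2597 on the WT and 9271 on the 2KO matrix array and lie closer together in basal epidermis (13032 and 10641).

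The IL-1 family ligands included agonists, antagonists and stored alarm cytokines. Of 10, 5 were called in at least 1 population, a count for which the share of all genes was not computed. Il33, a nuclear alarm cytokine released from damaged epithelium, read 2021 and 570 in basal epidermis and 362 and 148 in ORS, and its 2KO signal was 3.55-fold and 2.45-fold lower, respectively. In matrix it read 42.0 and 80.0, both under the floor. Il1a, the keratinocyte agonist of the IL-1 receptor, went the other way in basal epidermis, with 91.1 and 283 (3.10-fold higher). It read 44.9 and 90.2 in matrix and 67.5 and 139 in ORS, so every 2KO signal exceeded its WT partner, but near the floor. Il1b, the agonist made mostly by myeloid cells, read 349 and 453 in basal epidermis, 197 and 1182 in matrix (6.0-fold higher), and 224 and 234 in ORS. Il1rn, which encodes the IL-1 receptor antagonist, read 832 and 1252 in basal epidermis, 239 and 558 in matrix (2.33-fold higher), and 199 and 486 in ORS (2.44-fold higher). A less bright Il1rn probe set read 444 and 308 in basal epidermis, lower in 2KO. It read 116 and 135 in matrix and 124 and 198 in ORS, short of 2-fold in both. Another Il1rn probe set was 2.88-fold higher in matrix and 2.24-fold higher in ORS. Il1f6, which encodes IL-36 alpha, read 56.2 and 177 in basal epidermis (at least 2.13-fold higher) and lay under the floor on the other 4 arrays. Il1f9 (IL-36 gamma) read 731 and 845 in basal epidermis and Il1f5, the IL-36 receptor antagonist, 579 and 365. Il18 read 300 and 502 there.

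The IL-1 family receptors held the decoy Il1r2, which captures IL-1 without signalling. Il1r2 read 5974 and 489 in basal epidermis, 48.3 and 578 in matrix, and 823 and 181 in ORS. The 2KO signal was thus at least 6.94-fold higher in matrix, yet 4.54-fold lower in ORS and 12.2-fold lower in basal epidermis, and the 3 2KO arrays (181 to 578) lay much closer together than the 3 WT arrays (48.3 to 5974). The signalling receptor Il1r1 read 569 and 388, 364 and 692, and 705 and 688 in the same order, within 2-fold throughout. Il1rap, the co-receptor shared by IL-1, IL-33 and IL-36, read 1243 and 448 in basal epidermis (2.78-fold lower), 275 and 325 in matrix, and 605 and 351 in ORS. Il1rl2, the IL-36 receptor, read 2802 and 1369 in basal epidermis (2.05-fold lower), 631 and 825 in matrix, and 1391 and 1193 in ORS. Il18r1, the ligand-binding chain of the IL-18 receptor, was higher: 115 and 297 in basal epidermis (2.58-fold), 9.15 and 94.1 in matrix, and 56.9 and 561 in ORS (at least 6.74-fold).

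**Figure D3:**
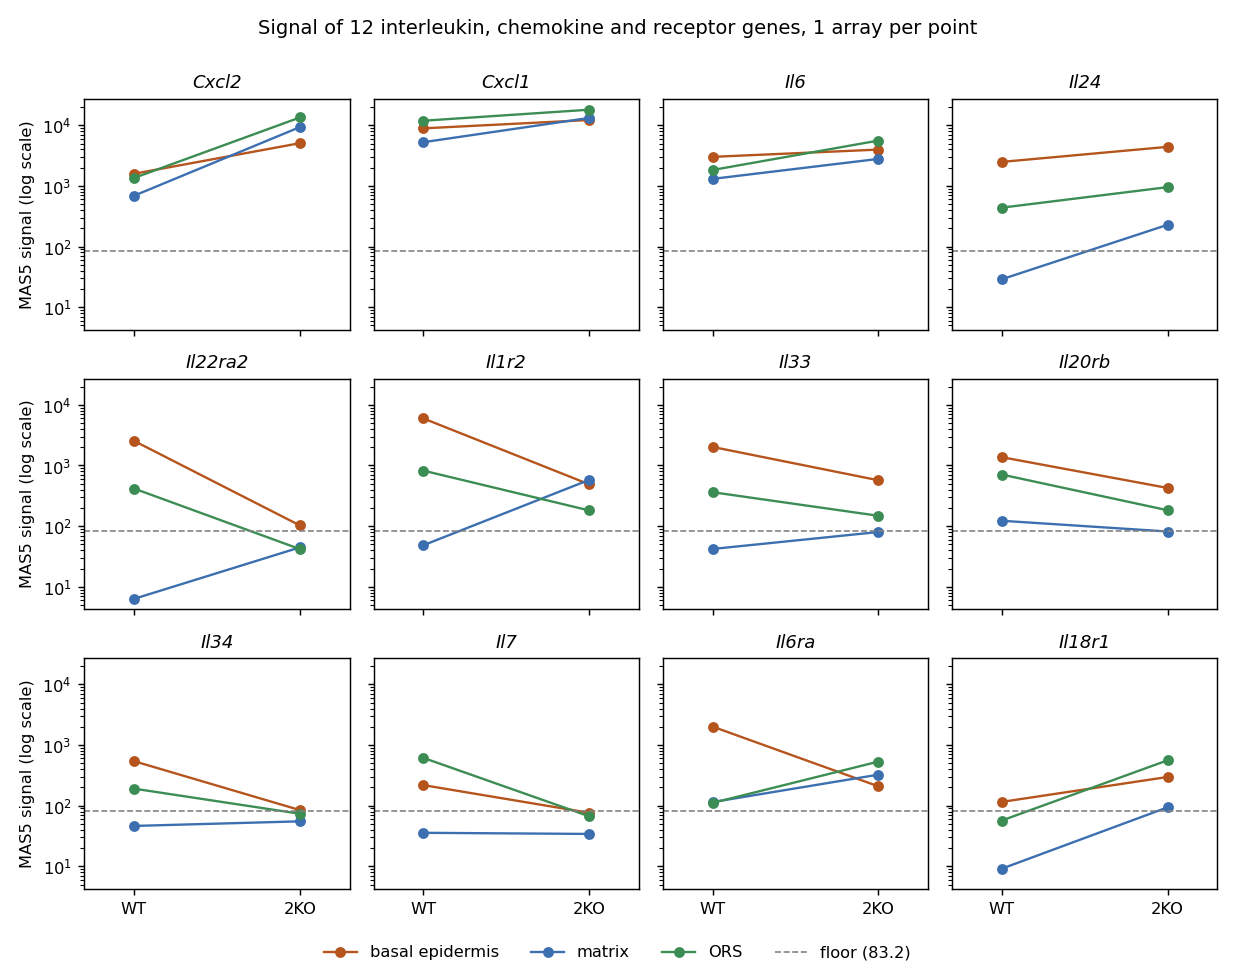
Array signal (y axis, log scale) of 12 members in WT and 2KO (x axis), 1 line per population, with the floor of 83.2 drawn as a line. Cxcl2 is above its WT partner on all 3 2KO arrays, whereas Il22ra2, Il33 and Il1r2 have high WT basal epidermis signals (2545, 2021 and 5974) and 103, 570 and 489 in 2KO.

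Il6ra, which with Il6st forms the IL-6 receptor, also differed in opposite directions. It read 2013 and 208 in basal epidermis (9.67-fold lower), 115 and 325 in matrix (2.83-fold higher), and 111 and 533 in ORS (4.80-fold higher). A less bright Il6ra probe set read 290 and 99.8 in basal epidermis, 108 and 80.8 in matrix, and 93.6 and 113 in ORS, so it had the opposite sign in matrix. The shared signalling chain Il6st read 1822 and 968, 400 and 472, and 971 and 1127 in the same order. In ORS a less bright Il6st probe set read 367 and 159 (2.32-fold lower), and another read 1226 and 1191. The ligand Il6 was higher in 2KO in each population: 3012 and 3969 in basal epidermis, 1305 and 2787 in matrix (2.14-fold), and 1829 and 5588 in ORS (3.06-fold). Il23a, the specific subunit of IL-23, read 144 and 357 in matrix (2.48-fold higher), 261 and 288 in basal epidermis, and 139 and 236 in ORS.

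Promoter windows of Il1r2 and Il6ra are printed because, of the 4 genes called in opposite directions in different populations, these were called in all 3. They come from RefSeq on GRCm38.p6, 5′ to 3′ (chr1:40085843-40086142 on the plus strand and chr3:89913147-89913446 on the minus strand), and capitals mark CG dinucleotides.
Il1r2: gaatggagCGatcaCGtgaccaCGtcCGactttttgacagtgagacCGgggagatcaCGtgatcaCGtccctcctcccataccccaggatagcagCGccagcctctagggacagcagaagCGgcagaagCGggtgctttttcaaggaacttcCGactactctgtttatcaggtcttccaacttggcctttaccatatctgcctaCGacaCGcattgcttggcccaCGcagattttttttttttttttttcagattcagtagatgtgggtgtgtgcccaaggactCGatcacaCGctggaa
Il6ra: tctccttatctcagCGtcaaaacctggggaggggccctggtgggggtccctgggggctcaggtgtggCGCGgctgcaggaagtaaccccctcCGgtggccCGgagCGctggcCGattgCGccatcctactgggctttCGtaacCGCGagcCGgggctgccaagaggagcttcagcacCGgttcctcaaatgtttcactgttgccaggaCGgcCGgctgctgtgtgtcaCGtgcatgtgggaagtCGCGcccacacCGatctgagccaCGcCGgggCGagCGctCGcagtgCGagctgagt
Il6ra has 25 CG dinucleotides in this window and Il1r2 has 16, while those of Il20ra and Il20, not printed, have 13 and 4, against a median of 7 over all promoter windows and 5 over those of members. Neither histone methylation nor factor binding was analysed here.

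In the IL-10 family the soluble decoy Il22ra2, which captures IL-22, had the largest difference of all called members in basal epidermis. It read 2545 and 103 there (24.8-fold lower), 417 and 41.8 in ORS (at least 5.01-fold lower), and 6.32 and 44.6 in matrix. Il20rb, the chain shared by the receptors for IL-20 and IL-24, read 1370 and 426 in basal epidermis (3.22-fold lower), 123 and 81.5 in matrix, and 708 and 182 in ORS (3.88-fold lower). Its partner Il20ra read 429 and 210 in basal epidermis (2.04-fold lower) but 37.0 and 296 in ORS (at least 3.56-fold higher). Il10rb, which pairs with several chains of the family, read 664 and 583, 450 and 476, and 612 and 727, within 2-fold. The ligand Il24 was higher in 2KO in each population, with calls in matrix and ORS: it read 2486 and 4407 in basal epidermis (1.77-fold), 28.9 and 229 in matrix (at least 2.75-fold), and 438 and 954 in ORS (2.18-fold). Il20, another ligand of the same receptors, read 32.5 and 230 in basal epidermis, a difference of at least 2.77-fold. In ORS its 2KO signal was instead at least 2.54-fold lower (212 and 54.8), and both matrix signals were under the floor.

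The ligands Il7, Il15 and Il34, each of them known to sustain immune cells that live in the skin, were called lower in basal epidermis and ORS. They were grouped after their values were seen, and Csf1, which shares the receptor of Il34, was not called there: it read 459 and 612 in basal epidermis and 402 and 691 in ORS. Il7, a survival factor for T cells, read 218 and 76.3 in basal epidermis (at least 2.62-fold lower) and 615 and 66.8 in ORS (at least 7.39-fold lower). The other Il7 probe set read 180 and 3.03 in ORS. Il15, which sustains T cells and natural killer cells, read 295 and 49.2 in basal epidermis (at least 3.55-fold lower) and 171 and 44.2 in ORS (at least 2.05-fold lower). Il34, the ligand of Csf1r that maintains Langerhans cells, read 542 and 84.6 in basal epidermis (6.40-fold lower) and 191 and 73.6 in ORS (at least 2.29-fold lower). In matrix all 3 ligands were under the floor in both genotypes, with signals from 34.2 to 72.2. Their receptor chains among the members were not called: Il15ra read 1042 and 756 in basal epidermis and 577 and 803 in ORS, and Il7r was under the floor on all 6 arrays.

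Of the receptors for IL-13 and IL-17, by which keratinocytes answer T cells, Il13ra1, Il17rc and Il17rd were called higher in matrix and in no other population. Il13ra1 read 5189 and 2756 in basal epidermis, 372 and 895 in matrix (2.41-fold higher), and 2320 and 3280 in ORS. Less bright Il13ra1 probe sets measured in matrix were 2.49-fold, 1.66-fold and 1.56-fold higher there. The last of these was 2.24-fold lower in basal epidermis (2694 and 1203). Il13ra2, the decoy for IL-13, was 2.32-fold lower in ORS (202 and 87.3). Il17rc, which pairs with Il17ra to bind IL-17A, read 1754 and 1411 in basal epidermis, 292 and 734 in matrix (2.52-fold higher), and 980 and 654 in ORS. Il17rd was 2.06-fold higher in matrix (93.4 and 192). Il17ra read 1162 and 786, 540 and 729, and 761 and 808, and Il17re, the receptor of IL-17C, 1229 and 1025, 470 and 785, and 1215 and 827. Neither was called. Il4ra, the chain that IL-4 and IL-13 share, read 567 and 484, 94.9 and 132, and 305 and 374.

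Basal epidermis and ORS had calls in common. Of the 14 members lower in basal epidermis and the 11 lower in ORS, 9 were the same: Ccl1, Cxcl12, Il15, Il1r2, Il20rb, Il22ra2, Il33, Il34 and Il7. These were 64.3% and 81.8% of the lists, against 38% and 31.4% for the 179 shared among all genes lower in each. Of the 6 and 9 higher ones 3 were the same: Cxcl2, Cxcl5 and Il18r1. These were 50% and 33.3% of the lists, against 50.1% and 38.9% among all genes. Il6ra and Il20ra were lower in basal epidermis and higher in ORS, and Il20 was the reverse. Over the 64 members measured in both, 21 were above 0 in both, 25 below 0 in both, and 18 had opposite signs (32.8%, 39.1% and 28.1%, against 33.2%, 30.5% and 36.3% of all 11204 genes measured in both). Matrix shared 6 of its 18 higher members with the 9 of ORS (Cxcl2, Cxcl3, Il1rn, Il24, Il6 and Il6ra) and 1, Cxcl2, with basal epidermis. The 6 were 33.3% of the matrix and 66.7% of the ORS list, against 40.2% and 43.2% among all genes. Cxcl2 alone was 5.56% of the matrix and 16.7% of the basal epidermis list, against 26.4% and 36.6% among all genes. These pairs share no arrays, and neither a difference between populations nor one between members and other genes was tested.

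**Figure D4:**
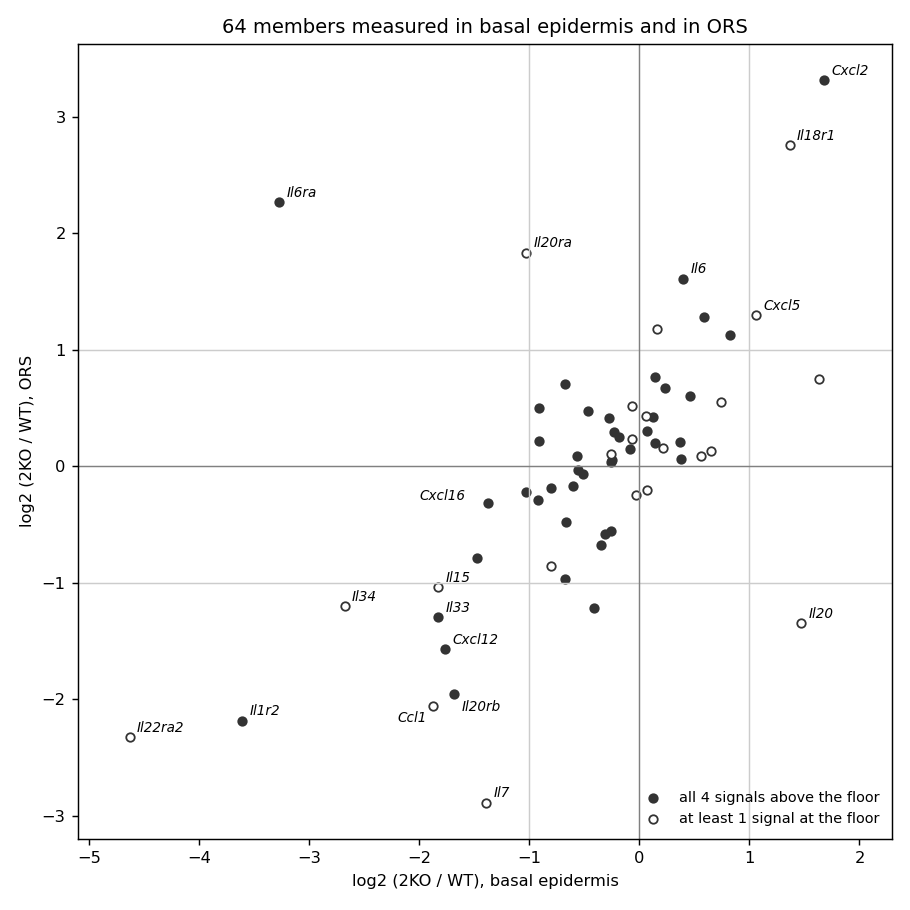
Log2 ratio of 2KO over WT in basal epidermis (x axis) against ORS (y axis) for the 64 members measured in both, each point a member, open where at least 1 signal lay at the floor. The lower left holds 25 members below 0 in both, among them Il22ra2, Il1r2, Il33 and Il34, and the upper right 21 members above 0 in both, led by Cxcl2.

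Among the WT arrays many members, though less than 50%, had a signal at least 2-fold lower in matrix than in another population. The 29 leukocyte markers also summed lowest on the WT matrix array, to 2597 against 13032 in basal epidermis and 7447 in ORS. The part of this marker difference in the members' values was not tested. WT basal epidermis exceeded WT matrix by at least 2-fold for 41 members (39.4%), against 8.57% of all genes, and was lower for 0, against 7.03%. WT ORS exceeded WT matrix for 33 members (31.7%), against 8.76%, and was lower for 0, against 5.4%. Basal epidermis exceeded ORS for 20 members (19.2%), against 2.58% of all genes. It was lower for 5 (4.81%), against 3.66%: Cxcl12, Cxcl14, Il7, Il17rd and Il20. These comparisons share arrays with one another and with the comparisons of genotype, so they are not independent of them. WT basal epidermis signals of several of the genes lower in 2KO stood far above those of matrix: Il1r2 was at least 71.8-fold above WT matrix and 7.26-fold above WT ORS, Il22ra2 at least 30.6-fold and 6.11-fold, Il33 at least 24.3-fold and 5.58-fold, and Il6ra 17.6-fold and 18.1-fold. Il34 was at least 6.51-fold and 2.84-fold above them. In WT basal epidermis Ccl2 was 26.2-fold and Ccl20 13.0-fold above WT matrix, and they were 1.06-fold and 1.91-fold apart from WT ORS.

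Of the 104 members, 30 were above the floor on all 6 arrays, 39 on some and 35 on none. Those under the floor throughout included many genes of T helper cells and their growth factors: Il2, Il4, Il5, Il9, Il13, Il17a, Il21 and Il25 among the ligands, and Il2ra, Il2rb, Il7r, Il9r and Il21r among the receptors. The floor is a limit of these arrays and does not show that a gene was absent. Where a called member had another measured probe set, the sign was the same in 7 of 8 cases in matrix and in 5 of 5 cases in each other population. The exception was Il6ra in matrix.

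Genes that act with the members were read from lists, and each count stands against the shares of all genes: 4.18% higher and 2.59% lower in basal epidermis, 5.79% and 1.04% in matrix, and 5.38% and 3.13% in ORS. Of 21 chemokine receptors, 0 were higher and 3 lower in basal epidermis, 2 higher (9.52%) and 0 lower in matrix, and 1 each way in ORS (4.76%). Ackr3, which binds Cxcl12 without classical signalling, read 4550 and 1807 in basal epidermis (2.52-fold lower) and 1089 and 2749 in ORS (2.52-fold higher), and Cxcr4 was 2.25-fold lower in ORS (429 and 191). Of 24 NF-kB signalling genes, 0 were called in basal epidermis, 5 were higher in matrix (20.8%), and 2 were higher (8.33%) and 1 lower in ORS. Nfkb2 and Relb, the subunits of the alternative NF-kB pathway, were 3.49-fold and 3.14-fold higher in matrix and 2.41-fold and 2.23-fold in ORS. Of 17 JAK-STAT genes, 1 was higher and 1 lower in basal epidermis, 7 higher (41.2%) and 0 lower in matrix, and 1 higher and 0 lower in ORS. Stat3, which IL-6 activates, and its feedback inhibitor Socs3 were 3.52-fold and 3.42-fold higher in matrix. Of 18 other cytokines, 7 were higher in matrix (38.9%), 5 in ORS (27.8%) and 2 in basal epidermis (11.1%), and 0 were lower. Ppbp and Pf4 of this list were not called in any population. Ppbp was under the floor on all 6 arrays. Pf4 read 178 and 127 in basal epidermis, 95.3 and 120 in matrix, and 157 and 149 in ORS. Tnf, an inducer of many chemokines, read 447 and 2011 in matrix (4.50-fold higher) and 133 and 1535 in ORS (11.5-fold higher), and Lif, which signals through Il6st, was 3.56-fold higher in basal epidermis, 3.00-fold in matrix and 2.77-fold in ORS. In matrix these differences stand beside the same marker values of other cells as the members' own.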

How the data were processed

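RNA was measured on 6 Affymetrix arrays. The deposited values are linear MAS5 intensities, 1 per probe set and array, per the submitters' processing notes, and the images were background-subtracted, per the series text. The MAS5 version was not given in the sources used here, and the array is named as MOE430A 2.0 and as MOE430v2. Each array has a 2% trimmed mean of 500, so ratios are relative to each array's total. Of 45101 probe sets, 64 controls and those naming several genes (7 of them for members) were left out. All 104 members were found in RefSeq (GRCm38.p6). Ratios were computed in Python 3.11.15 with numpy 2.4.6 and pandas 2.3.3, and the calling was tested on simulated data. With 1 array per group no test was run and the number of arrays limits the precision.

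The members and lists were chosen with earlier results of these data known. Named were Cxcl2, Il33, Il1r2 and Il22ra2, up to 10 called members each way per population, the 10 members with the highest mean signal, their partners, and up to 4 genes per pathway list and population. Members singled out beyond this rule were chosen after their values were seen. Alternatives changed the scaling, the floor, the fold and the choice of probe set.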

Additional observations from a re-analysis of the deposited data

Results flagged for a closer look

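The members Il1r2, Il6ra, Il20 and Il20ra differed by at least 2-fold in opposite directions in different populations, which is what singled them out. With 1 array per group this difference was not tested. Differences are between log2 ratios (2KO to WT). For Il1r2 the basal epidermis ratio minus the matrix ratio was -6.41, and the matrix ratio minus the ORS ratio was 4.98. For Il6ra the basal epidermis ratio minus the matrix ratio was -4.78, and minus the ORS ratio it was -5.54. For Il20 basal epidermis minus ORS was 2.82, and for Il20ra it was -2.86. Where a signal lay under the floor, as for WT matrix Il1r2, 2KO ORS Il20 and WT ORS Il20ra, the ratio behind the difference is a bound.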

How the results depend on the processing

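Of 463 values for called members under 8 alternatives, 380 stayed past the fold, 83 fell short of it and 0 changed sign. Other floors, or a constant added to both signals instead, cannot reverse the sign of a probe set's ratio. The common median and the hybridisation controls rescaled each pair by less than 2-fold, too little to reverse a call. The absence of reversals was thus fixed in advance for these alternatives. Calls kept under all 8 were 6 of 14 lower in basal epidermis (Cxcl16, Il1r2, Il20rb, Il22ra2, Il33 and Il6ra), 1 of 6 higher there (Cxcl2), 2 of 18 higher in matrix (Cxcl2 and Il1b), 0 of 11 lower in ORS and 2 of 9 higher there (Cxcl2 and Il6). Under the 3 other scalings 8 of 18 matrix calls were kept, 12 of 14 lower and 4 of 6 higher calls in basal epidermis, and 11 of 11 lower and 7 of 9 higher calls in ORS. Scaling to the hybridisation controls moved the median log2 ratio of all bright genes in matrix to -0.60, and it gave 8 higher and 1 lower members in matrix, 4 and 17 in basal epidermis, and 1 member lower than matrix in WT basal epidermis and in WT ORS. A common median gave 7 higher and 13 lower in ORS.

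With the floor at the 75th percentile, the higher and lower counts were 1 and 8 in basal epidermis, 4 higher in matrix, and 3 and 1 in ORS. At that floor the WT counts were 22 for basal epidermis above matrix, 12 for ORS above matrix, and 10 above and 2 below for basal epidermis against ORS. With the floor at the 25th percentile, matrix had 35 higher and 3 lower, ORS 15 higher, and 3 and 1 members were lower in WT basal epidermis and WT ORS than in WT matrix. A 1.5-fold threshold gave 10 and 23 in basal epidermis and 15 higher in ORS. A 3-fold threshold gave 2 and 9 in basal epidermis, 7 higher in matrix, and 5 and 5 in ORS. The mean over all probe sets of a gene gave 3 members lower in WT basal epidermis than in WT ORS. No paired analysis was possible because each group has 1 array and the labels give no replicate numbers. The causes were not tested. Signals near the floor limit what these arrays can show, since 48 of 104 members had a mean signal at or under it.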

Other observations

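The genes Il1r2, Il1r1, Il1rl2, Il18r1 and Il18rap lie in this order on chromosome 1, within a stretch of 8 annotated genes. In basal epidermis these neighbours did not differ together: Il1r2 was 12.2-fold lower and Il1rl2 2.05-fold lower, Il18r1 was 2.58-fold higher, and Il1r1 was within 2-fold. In ORS Il1r2 was 4.54-fold lower and Il18r1 at least 6.74-fold higher.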
